A study of Mus musculus with 24 samples.

Results

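The 35 genes described here carry glucose from the blood to the mitochondrion in the mouse left ventricle. They were chosen by symbol as the glucose transporters, glycolytic enzymes, lactate enzymes and transporters, pyruvate carrier and dehydrogenase genes, and glycogen enzymes, and 35 of 35 were found among the 14912 genes of the table. RNA was measured in left ventricles of wild-type (WT) mice infused subcutaneously by osmotic mini-pump for 7 days, 12 with angiotensin II (ANG II) at 1500 ng/kg/min and 12 with saline. The mice were male, of the strain C57BL/6J, and the hearts were flushed with saline. The ANG II mice form the hypertensive-LVH group (LVH, left ventricular hypertrophy) and the saline mice the control group. Further mice of the study were not analysed here. The age of the mice was not given in the sources used here. As a model this is a short, systemic pressor infusion of 1 sex, and the whole wall was sampled, so every value pools myocytes with the other cells of the ventricle.

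The adult heart draws most of its energy from fatty acids and a smaller part from glucose and lactate. Glucose enters through GLUT4 (Slc2a4), which insulin brings to the myocyte surface, and through the basal transporter GLUT1 (Slc2a1), is trapped by hexokinase and split by glycolysis into pyruvate. Pyruvate is reduced to lactate in the cytosol or taken into mitochondria, where pyruvate dehydrogenase turns it into acetyl-CoA. Many of the steps have a muscle isoform and a ubiquitous or fetal isoform, and pressure overload is known for a return toward fetal isoforms and a greater use of glucose.

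Levels are in FPKM, the fragments of a gene scaled by transcript length and by the mapped fragments of the sample, so genes can be compared per length. The deposited values were not plain FPKM. Of all values 0.766% were negative, 1 of them in a member (Aldoc). Exact ties between samples occurred only among 3 samples of the same group, numbered 1 to 3, 4 to 6, 7 to 9 or 10 to 12. The 3 ANG II and 3 control samples of the same numbers were joined by number, giving 4 sets. Within a set each gene had been shifted and scaled. No ties linked ANG II with control samples, even within a set, so the groups of a set were not shifted alike. The group labels thus entered the adjustment. The limma and isoform-ratio p-values rest on values adjusted in this way and may be too small, by an amount not tested. What the sets were is not stated. The sums of the values were 460715 to 515185 in the ANG II group and 482319 to 567727 in the control group, and the number of reads behind a value is unknown. The labels give the tissue as left ventricle, though their extraction text names CRC cells, and cardiomyocyte markers were abundant in every sample. Their summed level over 8 genes was 31728 to 45274 FPKM (median 37334) in the ANG II group and 41700.4 to 52002 (median 49719) in the control group.

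Log2 fold changes are ANG II minus control on the log2(FPKM + 1) scale, and a gene was called at an adjusted p under 0.05 in limma over the 14026 genes with a mean of at least 0.1 FPKM. Of the 35 members 20 were called, or 57.1%, against 33.5% of all genes tested. Higher in the ANG II group were 7 members (20%), beside 20.9% of all genes, a share near the background. Of these 7, Aldoc passed the filter only through its ANG II samples. Lower were 13 members (37.1%), beside 12.6% of all genes. The median log2 fold change was -0.04 over the members and 0.05 over all genes. The study's criteria also ask for an absolute log2 fold change above 0.5, and 5 members met them. Pfkp and Slc16a3 were higher, where 4.52% of all genes were, and Pfkfb1, Ldhb and Mpc2 were lower, where 1.4% of all genes were. No member separated the groups fully, since 0 of the 35 had groups without overlap, beside 0.756% of all genes tested. The 35 genes together made up 2.85 to 3.56% (median 3.25%) of the summed values of an ANG II sample and 3.18 to 3.84% (median 3.47%) of a control sample.

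**Figure D1:**
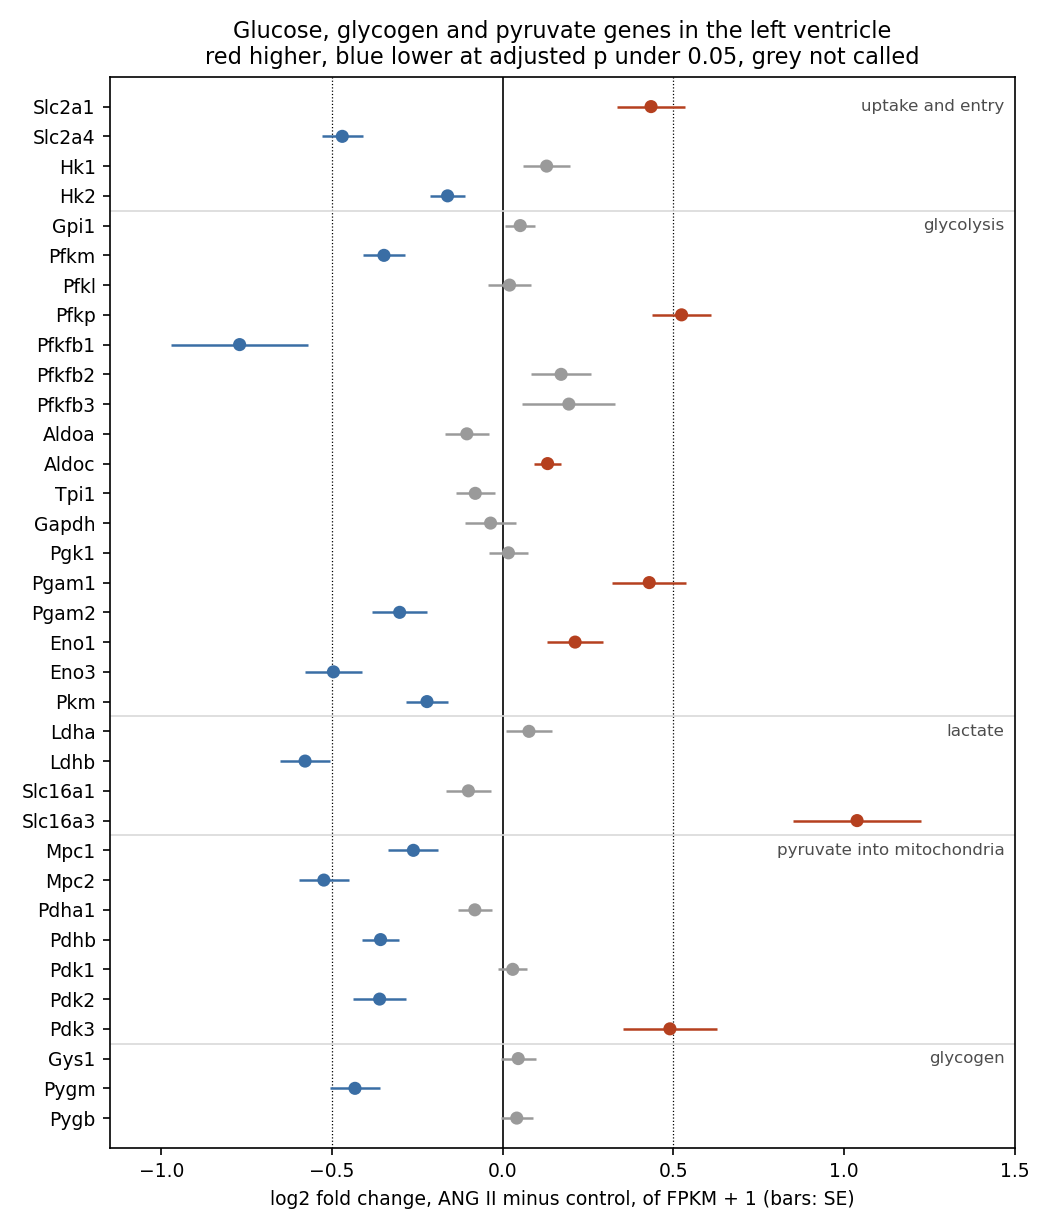
Log2 fold change (ANG II minus control, of FPKM + 1) of each of the 35 members in pathway order, with its SE as a bar. Red points were higher and blue points lower at a limma adjusted p under 0.05, grey points were not called, and the dotted lines mark 0.5 in each direction. Slc16a3 at 1.04 lies farthest to the right and Pfkfb1 at -0.77 farthest to the left.

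The sequences before the start sites are shown because members of the same steps were called in opposite directions. RefSeq promoters on GRCm38.p6 were matched by symbol for 34 of the 35 members, and the 250 bases before the start were searched on both strands for ACGTG, the core that hypoxia-inducible factors bind, for CACGTG, an E-box that contains ACGTG, and for AAGGTCA, a half-site bound by estrogen-related receptors. ACGTG was found in 14 of the 34 members (41.2%), in 16.6% of all 27025 promoters and in 21.1% of the 11012 promoters of genes tested. It was in 4 of the 7 members called higher, 5 of the 12 called lower with a promoter and 5 of the 15 not called, so it was not confined to either direction. The lower members with it were Hk2, Pfkm, Pdhb, Pdk2 and Pygm, and the higher members without it were Pfkp, Aldoc and Eno1. CACGTG was in 4 members (11.8%), Pfkm, Ldha, Slc16a1 and Pdk2, in 6.04% of all promoters and in 8.24% of those of genes tested. AAGGTCA was in 1 member (2.94%), Eno1, in 4.03% of all promoters and in 2.82% of those of genes tested. A match is a description of the letters and not a site of binding. Only some windows are shown, none of them of a lower member with ACGTG or a higher member without it, so they stand for neither direction. Below are the windows of the 4 higher members that hold ACGTG, with that motif in capitals, and of Ldhb, the lower member with the smallest limma p, which holds none of the 3 motifs. Each is written 5′ to 3′ on the strand of its gene. The positions are chr4:119108495-119108744 (plus strand) for Slc2a1, chr19:41911621-41911870 (plus) for Pgam1, chr11:120948817-120949066 (plus) for Slc16a3, chrX:93832151-93832400 (minus) for Pdk3 and chr6:142507958-142508207 (minus) for Ldhb. In GENCODE vM21, on the same build, the Slc16a3 window lies inside the gene, downstream of the start of its longest transcript, and the 5′ ends of Slc2a1 and Pdk3 fall inside their windows.
Slc2a1: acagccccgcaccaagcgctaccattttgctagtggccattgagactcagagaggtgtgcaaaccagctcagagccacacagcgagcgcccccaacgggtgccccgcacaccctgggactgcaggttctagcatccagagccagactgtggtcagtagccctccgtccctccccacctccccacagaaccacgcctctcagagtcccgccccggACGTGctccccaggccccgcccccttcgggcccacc
Pgam1: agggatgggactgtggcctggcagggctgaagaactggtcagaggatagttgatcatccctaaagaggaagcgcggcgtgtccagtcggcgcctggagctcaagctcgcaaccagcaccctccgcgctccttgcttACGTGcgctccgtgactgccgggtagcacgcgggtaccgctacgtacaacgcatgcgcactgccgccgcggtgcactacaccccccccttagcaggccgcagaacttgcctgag
Slc16a3: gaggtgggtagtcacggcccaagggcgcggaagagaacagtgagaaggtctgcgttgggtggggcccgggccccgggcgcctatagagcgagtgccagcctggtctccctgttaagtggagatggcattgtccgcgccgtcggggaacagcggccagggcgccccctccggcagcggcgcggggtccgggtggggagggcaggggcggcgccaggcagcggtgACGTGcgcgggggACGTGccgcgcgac
Pdk3: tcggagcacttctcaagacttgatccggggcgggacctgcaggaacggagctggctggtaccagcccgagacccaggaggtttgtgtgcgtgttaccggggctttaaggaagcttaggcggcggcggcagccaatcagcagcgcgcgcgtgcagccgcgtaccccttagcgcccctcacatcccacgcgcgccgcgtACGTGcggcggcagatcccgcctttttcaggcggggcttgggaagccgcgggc
Ldhb: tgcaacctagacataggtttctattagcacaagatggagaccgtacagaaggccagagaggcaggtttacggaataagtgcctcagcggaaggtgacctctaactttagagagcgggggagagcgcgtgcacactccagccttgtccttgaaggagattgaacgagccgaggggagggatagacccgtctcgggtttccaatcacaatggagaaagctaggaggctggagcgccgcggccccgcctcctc

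At the entry of glucose the transporters moved apart. Slc2a4 (chr11:69942539-69948188, minus strand, GENCODE vM21), which encodes GLUT4, ranged from 151 to 224 FPKM in the ANG II group (median 185) and from 218 to 288 in the control group (median 265). All 12 ANG II samples were below the control median and 9 were below the lowest control. Its log2 fold change was -0.47 (SE 0.06, limma adjusted p = 5.9e-06). Slc2a1, which encodes GLUT1, was more than 10 times less abundant, at 10.2 to 19.0 FPKM in the ANG II group (median 13.1) and 7.55 to 12.1 in the control group (median 9.50). All 12 ANG II samples were above the control median and 7 were above the highest control. The log2 fold change of Slc2a1 was 0.43 (SE 0.10, adjusted p = 0.0019). Hexokinase, which phosphorylates glucose and keeps it in the cell, is encoded by Hk1, found in most tissues, and the insulin-responsive Hk2. Hk2 fell by 0.16 on the log2 scale (SE 0.05, adjusted p = 0.018), with 65.9 to 93.6 FPKM in the ANG II group (median 75.7) and 75.8 to 96.5 in the control group (median 83.3). Hk1 was at 77.4 to 127 FPKM in the ANG II group (median 108) and 83.5 to 115 in the control group (median 96.1), and did not pass the test (log2 fold change 0.13, 95% interval -0.01 to 0.27).

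In the splitting of glucose to pyruvate, 4 of 17 members rose, 5 fell and 8 did not pass the test. Of all genes tested 20.9% were higher, near the share of these members that rose, and 12.6% were lower. The members that rose include Aldoc, whose call is no support for a rise. Gpi1, which turns glucose 6-phosphate into fructose 6-phosphate, had 347 to 447 FPKM (median 398) in the ANG II group and 355 to 418 (median 394) in the control group, and was not called. Phosphofructokinase makes the committed step of glycolysis, and its muscle, liver and platelet subunits are encoded by Pfkm, Pfkl and Pfkp. Pfkm, the main subunit, had 285 to 429 FPKM (median 347) in the ANG II group and 386 to 511 (median 453) in the control group. It was below the control median in 12 of 12 ANG II samples, with a log2 fold change of -0.35 (SE 0.06, adjusted p = 0.00013). Pfkp (chr13:6579768-6648777, minus strand) had 34.6 to 63.7 FPKM (median 47.4) against 29.3 to 41.3 (median 32.9), and 10 of the 12 ANG II samples were above the highest control. The log2 fold change of Pfkp was 0.52 (SE 0.09, adjusted p = 7.5e-05). Pfkl, at 48.3 to 75.9 FPKM (median 67.2) against 56.7 to 72.7 (median 64.5), was not called. The rise of the platelet subunit did not make up for the fall of the muscle subunit in FPKM, since the means of Pfkp were 49.7 and 33.8 and those of Pfkm were 358 and 455.

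The Pfkfb genes encode the enzymes that make and break down fructose 2,6-bisphosphate, the activator of phosphofructokinase. Pfkfb1 (chrX:150588229-150643878, plus strand), best known from liver and skeletal muscle, had 1.66 to 7.20 FPKM (median 3.90) in the ANG II group and 3.64 to 14.3 (median 7.21) in the control group. It was below the control median in 12 of 12 ANG II samples, with a log2 fold change of -0.77 (SE 0.20, adjusted p = 0.0050), and is a scarce transcript here. Pfkfb2, the heart isoform and the most abundant of the 3, had 14.3 to 26.2 FPKM (median 22.5) against 12.8 to 22.7 (median 20.4) and was not called. Pfkfb3, the inducible isoform, was not called either, at a log2 fold change of 0.19 with a 95% interval of -0.09 to 0.48.

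The middle of the pathway holds the most abundant members and no called change in them. Gapdh, which oxidises glyceraldehyde 3-phosphate, had 3929 to 5915 FPKM (median 5004) in the ANG II group and 4647 to 6095 (median 5019.6) in the control group. Its log2 fold change was -0.04 (95% interval -0.19 to 0.12). With quantile normalization it was 0.21 and called (adjusted p = 0.0024), so its direction depends on the scaling. Aldoa, the muscle aldolase, had 1829.7 to 2590.1 FPKM (median 2249.8) against 2034 to 2753 (median 2453), and Tpi1, the triose-phosphate isomerase, 388 to 570.4 (median 488) against 428 to 603 (median 505). Pgk1, whose reaction yields ATP, had 208 to 302 FPKM (median 234) against 215 to 289 (median 236). Not one of these passed the test, and all overlapped widely between the groups. Aldoc, the brain aldolase, was called higher at 0.0995 to 0.369 FPKM (median 0.186) against -0.0299 to 0.215 (median 0.0999), a very low level, and its log2 fold change was 0.13 (adjusted p = 0.012). Its mean was 0.200 FPKM in the ANG II group and 0.0918 in the control group. It thus passed the filter of 0.1 FPKM only through the group where it was higher, and its call is no support for a rise. Gapdh, Pgk1, Ldha, Pgam1, Aldoa and Mpc1 have processed pseudogenes in GENCODE vM21, and Eno1 has a near-identical copy, Eno1b. The counting of shared fragments was not described, so their values are uncertain to that extent.

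The last steps of glycolysis again moved by isoform. Phosphoglycerate mutase has a ubiquitous form, Pgam1, and a muscle form, Pgam2. Pgam2 had 479.9 to 815 FPKM (median 606) in the ANG II group and 617 to 916 (median 753) in the control group, with a log2 fold change of -0.30 (SE 0.08, adjusted p = 0.0055). Pgam1 had 55.0 to 98.5 FPKM (median 81.8) against 43.2 to 81.8 (median 59.3), with a log2 fold change of 0.43 (SE 0.11, adjusted p = 0.0040). Of the 12 ANG II samples 10 were below the control median for Pgam2 and 11 were above it for Pgam1. Enolase has the ubiquitous and embryonic form Eno1 and the muscle form Eno3. Eno3 had 573 to 983 FPKM (median 724) against 809 to 1228 (median 1049), was below the control median in 12 of 12 ANG II samples and fell by 0.50 on the log2 scale (SE 0.08, adjusted p = 0.00011). Eno1 had 110.3 to 210.1 FPKM (median 157) against 115 to 161 (median 140.2). Its log2 fold change of 0.21 was just past the threshold (adjusted p = 0.0493) and was lost under most other settings. Pkm, the muscle-type pyruvate kinase gene, whose splice forms the table does not separate, had 508 to 743 FPKM (median 649) against 641 to 876 (median 737) and a log2 fold change of -0.22 (SE 0.06, adjusted p = 0.0084).

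Among the lactate genes, Ldhb fell and Slc16a3 rose. Ldhb (chr6:142490249-142507957, minus strand), the heart-type subunit, had 746 to 1133 FPKM (median 937) in the ANG II group and 1082 to 1624 (median 1422) in the control group. All 12 ANG II samples were below the control median and 10 were below the lowest control. Its log2 fold change was -0.58 (SE 0.07, adjusted p = 5.2e-06), the smallest limma p among the members. Ldha, the muscle-type subunit, had 463 to 712 FPKM (median 561) against 491 to 668 (median 559) and was not called (log2 fold change 0.08, 95% interval -0.06 to 0.22). Slc16a3 (chr11:120948480-120960868, plus strand) encodes MCT4, the lactate exporter of glycolytic cells. It had 2.34 to 8.83 FPKM (median 4.89) in the ANG II group and 0.563 to 3.03 (median 2.31) in the control group, and 11 of the 12 ANG II samples were above the highest control. Its log2 fold change of 1.04 (SE 0.19, adjusted p = 0.00021) was the largest of the members. Slc16a1, which encodes MCT1, the main lactate transporter of the heart, had 49.4 to 69.2 FPKM (median 59.2) against 51.7 to 78.4 (median 61.9) and was not called.

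**Figure D2:**
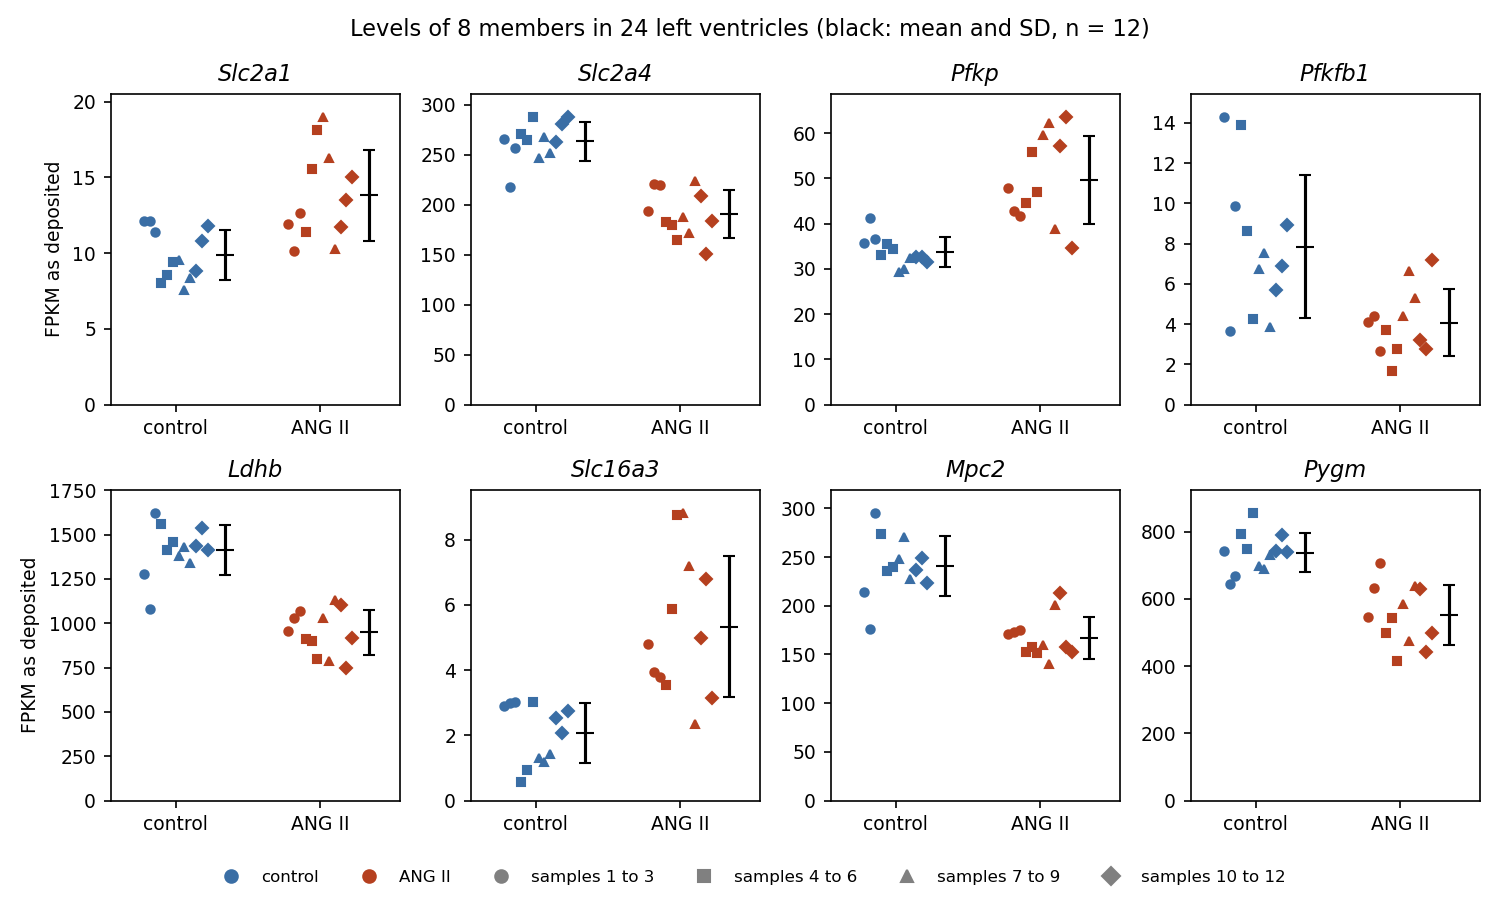
FPKM as deposited of 8 members in each of the 24 left ventricles, in 8 panels with separate axes from 0, with control samples in blue, ANG II samples in red, the marker shape giving the set of samples, and the mean and SD (n = 12) in black. For Ldhb 10 of the 12 ANG II samples lie below the lowest control, and for Slc16a3 11 of the 12 lie above the highest control.

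The genes of the pyruvate carrier, of pyruvate dehydrogenase and of its kinases were mostly lower. Of 7 members 4 fell and 1 rose, where 12.6% of all genes were lower and 20.9% higher, and the median log2 fold change was -0.26. These counts mix the carrier and dehydrogenase genes with those of the kinases, which switch the dehydrogenase off. The mitochondrial pyruvate carrier is a dimer of the products of Mpc1 and Mpc2. Mpc2 (chr1:165460637-165481214, plus strand) had 141 to 213 FPKM (median 159) in the ANG II group and 176 to 296 (median 238) in the control group, with 10 of the 12 ANG II samples below the lowest control and a log2 fold change of -0.52 (SE 0.07, adjusted p = 1.2e-05). Mpc1 had 299 to 463 FPKM (median 377) against 358 to 558 (median 446) and fell by 0.26 on the log2 scale (SE 0.07, adjusted p = 0.0082). Pyruvate dehydrogenase E1 is built of alpha and beta subunits. The beta subunit gene Pdhb had 359 to 488 FPKM (median 399) against 442 to 577 (median 536), with 12 of 12 ANG II samples below the control median and a log2 fold change of -0.36 (SE 0.05, adjusted p = 2.7e-05). The alpha subunit gene Pdha1 was not called, at -0.08 (95% interval -0.18 to 0.02). Pyruvate dehydrogenase kinases switch the enzyme off. Pdk2, the most abundant of the 3 members, had 237 to 391 FPKM (median 315) against 335 to 452 (median 391), was below the control median in 12 of 12 ANG II samples and fell by 0.36 on the log2 scale (SE 0.08, adjusted p = 0.0010). Pdk3 was scarce, at 2.11 to 5.69 FPKM (median 3.10) against 0.911 to 4.55 (median 1.96), and had a log2 fold change of 0.49 (SE 0.14, adjusted p = 0.0089). Pdk1 had 44.4 to 62.7 FPKM (median 53.1) against 48.3 to 56.6 (median 52.7) and was not called.

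In glycogen metabolism 1 of 3 members was called, a share near the 33.5% of all genes tested. Pygm, the muscle glycogen phosphorylase that releases glucose 1-phosphate, had 416 to 706 FPKM (median 544) in the ANG II group and 644 to 857 (median 741) in the control group. Of the 12 ANG II samples 11 were below the lowest control, and the log2 fold change was -0.43 (SE 0.07, adjusted p = 0.00013). Pygb, the brain phosphorylase, had 297 to 378 FPKM (median 345) against 293 to 394 (median 335), and Gys1, the muscle glycogen synthase, was at 68.2 to 89.1 (median 76.7) against 66.3 to 84.3 (median 75.1). Neither passed the test.

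Because isoforms of a step share a reaction, 12 pairs were compared by the log2 ratio of the first isoform to its partner in each sample, with a two-sided permutation test (100000 resamples) and Benjamini-Hochberg adjustment over the 12 pairs. The pairs share Pfkm and Pdk2, and their genes are those already described, so the ratios are not further evidence of the single changes. The partner was the more abundant gene in control samples in 11 of the 12 pairs, the exception being Hk1 and Hk2. All 12 ratios were higher in the ANG II group, by 0.24 to 1.14 on the log2 scale, with adjusted p from 3e-05 to 0.0044. They include Aldoc with Aldoa, and Aldoc passed the filter only through its ANG II samples. Like the other lists, the pairs were chosen with earlier results of these data known, so their shared direction is not independent evidence. Ldha made up 31.8 to 48.3% of the summed FPKM of Ldha and Ldhb in the ANG II group (38.6% ± 5.18, SD, n = 12) and 25.7 to 31.3% in the control group (28.5% ± 1.74, SD, n = 12). This was the only pair in which all 12 ANG II samples lay above the highest control, and its log2 ratio differed by 0.66 (SE 0.10, permutation adjusted p = 3e-05). The share of Pygb with Pygm was 38.9% ± 3.29 against 31.4% ± 1.89 (SD, n = 12 each), with 11 of the 12 ANG II samples above the highest control.

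In both of these pairs the partner was called lower, and neither Ldha nor Pygb was called. The share of Slc2a1 with Slc2a4 was 6.90% ± 1.92 in the ANG II group and 3.64% ± 0.730 in the control group (SD, n = 12 each), and that of Pfkp with Pfkm was 12.3% ± 2.70 and 6.96% ± 0.971. The share of Pgam1 with Pgam2 was 11.5% ± 2.09 and 7.26% ± 1.5, and that of Eno1 with Eno3 was 18.0% ± 3.51 and 11.7% ± 1.45. In these 4 pairs both genes were called, in opposite directions. The share of Slc16a3 with Slc16a1 was 8.36% ± 3.55 and 3.24% ± 1.52, and that of Pdk1 with Pdk2 was 15.0% ± 2.57 and 11.8% ± 0.700. Pfkl with Pfkm had shares of 15.7% ± 2.42 and 12.5% ± 1.04, and Pdk3 with Pdk2 of 1.15% ± 0.589 and 0.548% ± 0.277. Hk1 with Hk2 had shares of 58.4% ± 3.45 and 53.4% ± 3.92. The ratio of Aldoc to Aldoa differed by 0.24 (adjusted p = 0.0044), but Aldoc was so low that its share was at most 0.0151% in any sample. In 11 of the 12 pairs the ratio was higher in the ANG II group within each of the 4 sets of samples, and the exception was Hk1 with Hk2, whose ratio differed by -0.12 in samples 10 to 12. Without samples 4 to 6 the adjusted p of Hk1 with Hk2 was 0.062 and that of Aldoc with Aldoa 0.059. These ratios rest on the adjusted values, since the level of a set before its adjustment is unknown.

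**Figure D3:**
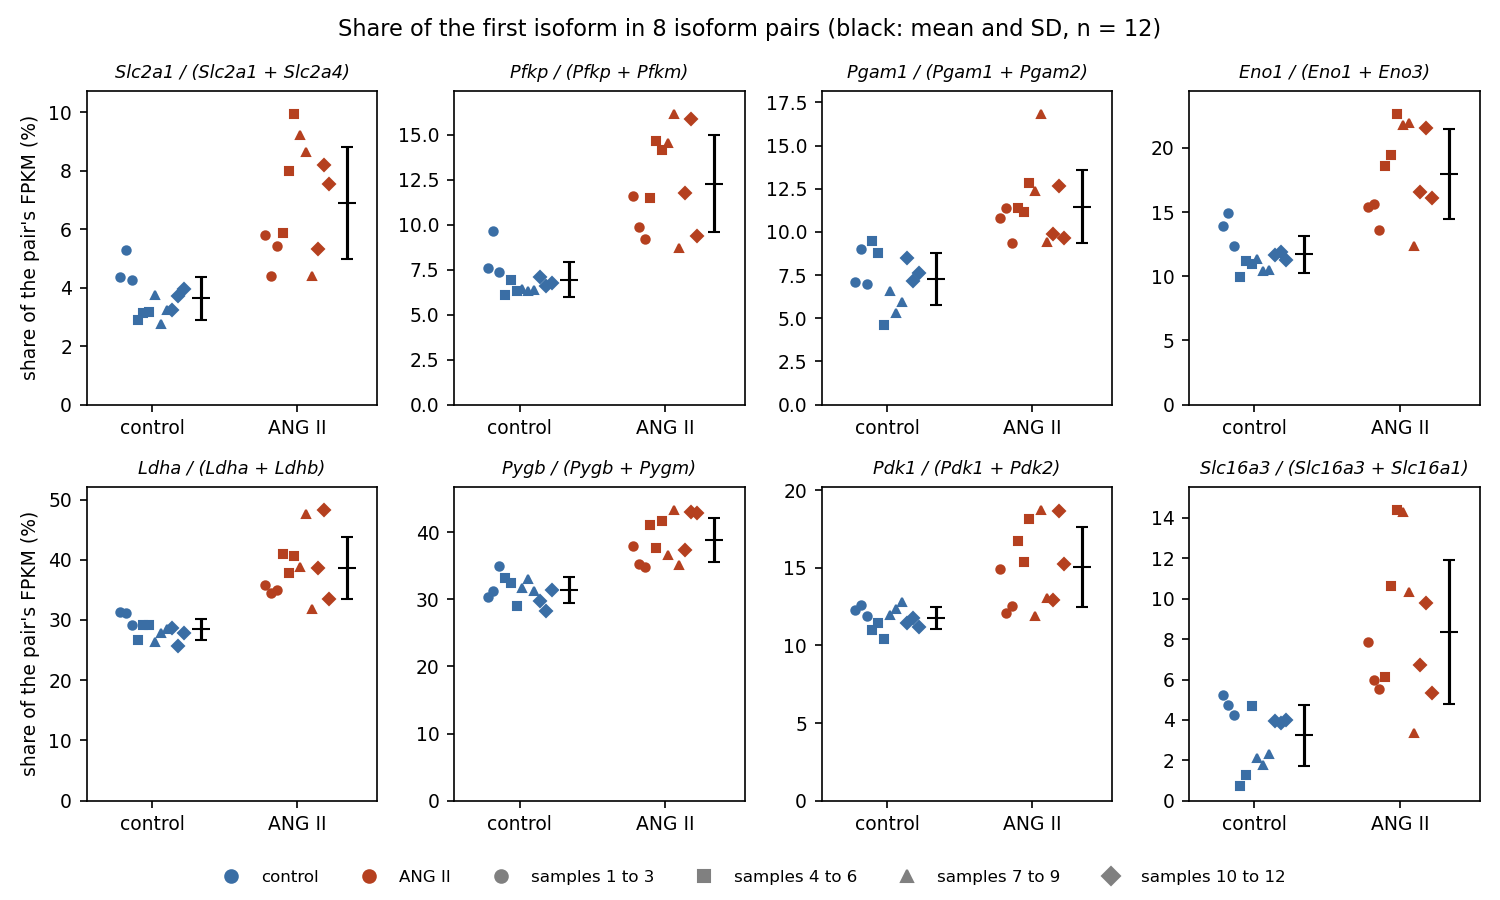
Share (%) of the first isoform in the summed FPKM of 8 isoform pairs in each of the 24 left ventricles, with control samples in blue, ANG II samples in red, the marker shape giving the set of samples, and the mean and SD (n = 12) in black. Axes start at 0 and differ between panels. For Ldha all 12 ANG II samples, at 31.8% or more, lie above the highest control at 31.3%.

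The size of the differences varied between the sets of samples. For all 35 members the steps between values gave the scale of each set, and with it the difference between ANG II and control samples of a set before the adjustment. Percentages are of the deposited mean of all 12 control samples, since the control level of a set before the adjustment is unknown. The sign of the overall difference was the same before and after in 35 of 35. By an exact permutation of labels within the sets (160000 relabelings, adjusted over 13701 genes), 5 members were higher, beside 17.9% of all genes so tested, and 11 were lower, beside 10.5%. The 5 include Aldoc, which was among the tested genes only through its ANG II samples and is no support for a rise. Eno1 (adjusted p = 0.15), Pdk3 (0.081), Hk2 (0.086) and Mpc1 (0.052) no longer passed. Samples 1 to 3 showed the smallest differences. There the 13 lower members had a median difference of -8.39% of the control mean and the 7 higher members one of 3.63%, with 4 of the 7 in the same direction as overall. That 3.63% is the value of Aldoc, whose call is no support for a rise. Of the other higher members, Pfkp, Pgam1 and Slc16a3 differed there by 8.53, 16.7 and 31.7%. Slc2a1, Eno1 and Pdk3 differed by -20.2, -15.3 and -26.4%. The medians of the lower and of the higher members, Aldoc included, were -37.7% and 64.2% in samples 4 to 6. They were -21.1% and 71.1% in samples 7 to 9, and -18.7% and 51.8% in samples 10 to 12. In the order of the sets, Ldhb had differences of -17.8, -41.4, -28.5 and -37.5% of the control mean and Mpc2 of -23.0, -37.7, -30.6 and -25.4%. Slc16a3 had differences of 31.7, 222, 236 and 134%. Slc2a1 differed by -20.2% in samples 1 to 3 and by 64.2, 71.1 and 33.2% in the others. One direction in all 4 sets was seen for 4 of the 7 higher members, Aldoc among them, and 10 of the 13 lower members. The exceptions among the lower members were Hk2, Pdk2 and Pygm.

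**Figure D4:**
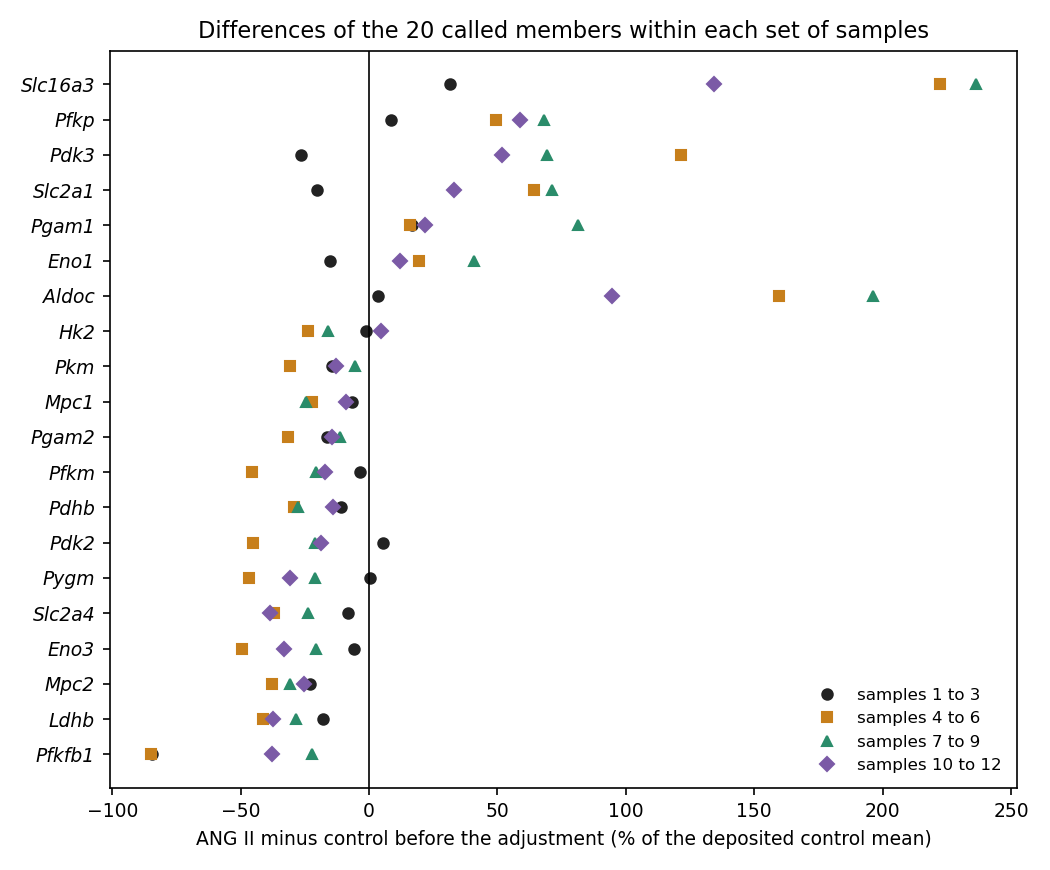
Difference between ANG II and control samples before the adjustment, in percent of the deposited mean of the 12 control samples, for the 20 called members (rows) within each of the 4 sets of samples (marker shape and colour). For the 13 lower members the median of samples 1 to 3 was -8.39% and that of samples 4 to 6 was -37.7%.

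Leaving out samples 4 to 6 left 4 higher members (11.4%, beside 8.4% of all genes) and 8 lower members (22.9%, beside 11.7%). Lost were Aldoc, Eno1, Pdk3, Hk2, Pfkfb1 (adjusted p = 0.054), Pgam2, Pkm and Mpc1. Without samples 7 to 9, Aldoc, Pgam1, Eno1, Hk2 and Mpc1 were lost and Pfkfb2 was gained (log2 fold change 0.29, adjusted p = 0.026). Hk1 was gained without samples 10 to 12 (0.20, adjusted p = 0.034) and Gpi1 with quantile normalization (0.12, adjusted p = 0.044). Under each of the 13 alternatives tried, 11 of the 20 members stayed called, namely Slc2a1, Pfkp and Slc16a3 higher and Slc2a4, Pfkm, Eno3, Ldhb, Mpc2, Pdhb, Pdk2 and Pygm lower. In samples 1 to 3, Slc2a1, Pdk2 and Pygm went the other way before the adjustment, by -20.2, 5.25 and 0.45% of the control mean. Among these alternatives, the set term and the replicate block leave the log2 fold changes as they were. They were fitted to values already adjusted by set, so they add little. The scaling also bears on the balance of directions. Of all called genes 62.3% were higher, against 54.4% with median-ratio scaling, 39.6% with quantile normalization and 41.9% without samples 4 to 6. With median-ratio scaling 6 members, Aldoc among them, were higher (17.1%, beside 18.1% of all genes) and 13 lower (37.1%, beside 15.2%). With quantile normalization 8 were higher (22.9%, beside 13.7%) and 11 lower (31.4%, beside 20.9%), so how far each direction stands from the background depends on the scaling.

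Markers of other cells moved with the groups. Of 8 macrophage markers 8 were higher, and their summed level was 225 to 716 FPKM in the ANG II group and 184 to 414 in the control group. Of 8 fibroblast markers 5 were higher and 0 lower, with sums of 745 to 2767 and 199.5 to 1074 FPKM, and Col1a1, Col1a2 and Col3a1 had values at or under 0 in at least 1 sample. Of 8 cardiomyocyte markers 4 were lower, Tnni3 at -0.63, Myl2 at -0.50, Pln at -0.32 and Actc1 at -0.30, and 4 were not called, Ryr2 at 0.01, Tnnt2 at -0.07, Actn2 at 0.17 and Myh6 at -0.23. All 5 red blood cell markers were higher, with sums of 779 to 6443 and 92.2 to 2949 FPKM, and Hba-a2 had a value at or under 0 in at least 1 sample. Of 6 endothelial markers Pecam1 was higher and Kdr was lower, and of 6 smooth muscle and pericyte markers Tagln and Cspg4 were higher. Skeletal muscle markers were found for 3 of 6, with Tnnt3 higher and Ckm lower and Actn3 and Tnnt3 at or under 0 in at least 1 sample, and the 3 adipose markers found were not called and had values at or under 0. By set of samples, from 1 to 3 to 10 to 12, the median log2 difference was 0.06, 1.33, 0.87 and 0.14 over the macrophage markers, 0.29, 2.62, 0.32 and 0.24 over the fibroblast markers and -0.07, -0.42, -0.15 and -0.19 over the cardiomyocyte markers. The part of these cells in the members' differences was not tested. In RNA of a whole ventricle, fewer cells of a type and less RNA per cell cannot be told apart.

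Of 66 other genes of the pathway tested, out of 70 listed, 11 were higher and 17 lower, or 16.7 and 25.8% beside 20.9 and 12.6% of all genes, and 5 met both criteria. Emb, a chaperone of monocarboxylate transporters, was higher, at 0.744 to 4.02 FPKM (median 1.88) in the ANG II group and 0.125 to 1.54 (median 0.810) in the control group (log2 fold change 0.69, adjusted p = 0.0012). Ldhd, which oxidises D-lactate, was lower, at 8.06 to 15.2 FPKM (median 12.6) against 14.9 to 24.2 (median 20.1), with a log2 fold change of -0.73 (adjusted p = 6.4e-06). Pdp2, a phosphatase that switches pyruvate dehydrogenase on, was lower by the same test at -0.66 (adjusted p = 0.00013), and Phkg1, the catalytic subunit of muscle phosphorylase kinase, at -0.64 (adjusted p = 0.00069). Pdk4, the kinase that fasting and fatty acids induce, had 112 to 961 FPKM (median 337) in the ANG II group and 141 to 660.2 (median 253) in the control group and was not called (log2 fold change 0.18, SE 0.34, adjusted p = 0.70). The set of samples 4 to 6 went the other way from the rest, with a log2 difference of -2.22, where the remaining sets had 0.91, 1.26 and 0.78 in their order. With that set left out Pdk4 was called higher (limma adjusted p = 0.0080).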

How the data were processed

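Poly(A)-selected RNA of 24 left ventricles, 12 ANG II and 12 control, was sequenced by the authors with paired ends. The labels name HISAT, Bowtie2 and RSEM, and the genome build was not given in the sources used here. The authors deposited FPKM, 1 value per gene and sample, listed by symbol. Since 2741 values were negative, the deposited values are another, adjusted form of FPKM, and the adjustment is not named in the study's methods. The deposited values give no depth, so no counting error can be stated.

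Negative values were set to 0, log2(FPKM + 1) was taken and limma was fitted to the 14026 genes averaging 0.1 or more, in version 3.58.1 under R 4.3.3 (empirical Bayes with an intensity trend), with Benjamini-Hochberg adjustment over all of them. Plain FPKM had been planned for, and the planned test was kept. Printed levels are as deposited. Isoform ratios, recovery of the differences within sets (steps of 0.01 FPKM, 97% of genes recovered) and sequence searches used Python 3.11.15, numpy 2.4.6, pandas 2.3.3 and scipy 1.17.1. All tests were two-sided, and the programs were tested on simulated data. The samples are biological replicates by the study's methods.

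Levels were printed for members past both criteria, in a pair past the threshold, or most abundant in their step, and for other pathway genes past both criteria and Pdk4. One of these other genes is not reported here. The members and lists were chosen with earlier results of these data known. The alternatives tried were another pseudocount (0.1), no filter, a mean of at least 1, 2 other scalings, the replicate number as a block, the set as a term, a Wilcoxon test, leaving out each set and the values before the adjustment.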

Additional observations from a re-analysis of the deposited data

How the results depend on the processing

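With the study's fold change criterion added, 2 members were higher and 3 lower. Without samples 4 to 6 the counts were 4 and 8. The number of other pathway genes called higher was 6 with quantile normalization, 7 with the replicate block, 7 without samples 1 to 3 and 6 without samples 4 to 6, and the number called lower was 11 with the replicate block and 10 without samples 4 to 6. The cause was not tested, beyond the fewer samples in the fits that leave some out. Members that did not pass the test changed sign in 15 cases. With quantile normalization the log2 fold change was 0.21 for Gapdh and 0.0053 for Tpi1. With median-ratio scaling it was -0.018 for Pfkl, -0.0217 for Pgk1 and -0.0086 for Pdk1. Without samples 4 to 6 it was 0.0177 for Gapdh, 0.0147 for Slc16a1 and -0.0010 for Pfkl. Without samples 7 to 9 it was -0.0097 for Gpi1, -0.0166 for Pfkl, -0.0394 for Pgk1 and -0.0336 for Gys1. Without samples 10 to 12 it was -0.0062 for Pgk1, -0.0179 for Pdk1 and -0.00014 for Pygb. Of the other values for single genes and pairs, 454 kept their side of the threshold, 30 lost and 3 (Hk1, Gpi1 and Pfkfb2) gained the call.

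The replicate numbers are shared by the groups but name no shared animal. Correlations of same-numbered samples ran from -0.56 to -0.0011 (median -0.22), with 0 of 12 above 0.1 and 0 best with their own number. They cannot show whether such samples belong together, since the adjustment brought the sets to similar means over both groups. Where the ANG II samples of a set were high, its control samples were then low. For Slc2a1, samples 7 to 9 had the highest ANG II mean and the lowest control mean of the sets. With the replicate block 18 of the 20 called members stayed called, and Eno1 and Hk2 were lost. Depth is unknown, so the precision of the scarce members Aldoc, Slc16a3, Pdk3 and Pfkfb1 can be judged only from the spread between mice.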
